A study of Mus musculus with 30 samples.

Results

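Ankrd1, Ankrd2, Ankrd23, Csrp3, Xirp1, Xirp2, Flnc and Nrap encode proteins of the sarcomere and its attachment sites that are known to respond to stretch and load in striated muscle. Their rows were taken by gene symbol, and they make up 8 of the 36103 genes counted. They were followed in the gastrocnemius, the diaphragm and the heart of male 5-week-old Mtm1-/y mice and of wild-type (WT) littermates. All mice were of the 129Pas background, and the Mtm1-/y mice carry a constitutive knock-out of Mtm1, which encodes the phosphoinositide phosphatase myotubularin and whose loss causes X-linked myotubular myopathy. The gastrocnemius and the heart each gave 4 WT and 4 Mtm1-/y libraries, and the diaphragm gave 4 WT and 3 Mtm1-/y libraries, so that 23 of the 30 libraries of the series are of muscle. The other 7, 3 WT and 4 Mtm1-/y, are of liver, a tissue without sarcomeres. Whole organs were used, and in such bulk RNA fewer cells of a type and less RNA per cell cannot be told apart.

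The 8 proteins fall into families. Ankrd1, Ankrd2 and Ankrd23 encode the muscle ankyrin repeat proteins CARP, Arpp and DARP, which bind the N2A region of the spring protein titin in the I-band and can also enter the nucleus. Csrp3 encodes the muscle LIM protein, which sits at the Z-disc and shuttles to the nucleus. Xirp1 and Xirp2 encode the Xin actin-binding repeat proteins of the intercalated disc and of the myotendinous junction, and Flnc encodes filamin C, the muscle actin crosslinker that Xin proteins bind and that is cleared by chaperones after mechanical damage. Nrap encodes a nebulin-related anchoring protein that takes part in the assembly of myofibrils. Several of these genes are induced in heart by pressure overload and in skeletal muscle by stretch, denervation or injury.

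The genes lie on several chromosomes of the mm10 assembly. Ankrd1 (ENSMUSG00000024803, chr19:36111961-36120099, minus strand), Ankrd2 (ENSMUSG00000025172, chr19:42036000-42045110, plus strand) and Nrap (ENSMUSG00000049134, chr19:56320035-56390037, minus strand) share chromosome 19. Ankrd23 (ENSMUSG00000067653) is at chr1:36530188-36536883 on the minus strand, Csrp3 (ENSMUSG00000030470) at chr7:48830398-48848033 on the minus strand and Xirp1 (ENSMUSG00000079243) at chr9:120013755-120023598 on the minus strand. Xirp2 (ENSMUSG00000027022) is at chr2:67446002-67526614 and Flnc (ENSMUSG00000068699) at chr6:29433256-29461883, both on the plus strand. Of the 2697 exonic bases of Ankrd23, 2109 are shared with the same-strand gene Gm42417, and reads that fit 2 genes had been dropped in counting. The level of Ankrd23 is therefore a low estimate, although its comparisons between libraries use the same bases throughout. On the opposite strand, Nrap shares 268 exonic bases with Habp2 and 108 with Gm17197, and Xirp2 shares 168 with Gm13601. The strand setting of the counting is not given in the sources used here, so reads from these bases cannot be assigned with certainty.

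Promoter windows of RefSeq, build GRCm38.p6, which run from 250 bases before to 50 bases after an annotated start site, were held for 7 of the 8 genes, all except Xirp1. The bases before the start are shown for the 3 genes that rose most in the Mtm1-/y gastrocnemius and for the 1 that fell, since these changes carry most of the result. Capitals mark MCAT elements (CATTCC or its reverse GGAATG), the sequence known to bind TEAD factors, and E-boxes (CANNTG), the sequence known to bind myogenic factors such as MyoD and myogenin. The Ankrd1 bases shown lie within the gene as annotated above. Of the 2 Ankrd23 windows, which both lie within the annotated gene, the downstream one is shown. Of the 2 Csrp3 windows, the upstream one is shown, and the other lies within the annotated gene.
Ankrd1, chr19:36119845-36120094, minus strand: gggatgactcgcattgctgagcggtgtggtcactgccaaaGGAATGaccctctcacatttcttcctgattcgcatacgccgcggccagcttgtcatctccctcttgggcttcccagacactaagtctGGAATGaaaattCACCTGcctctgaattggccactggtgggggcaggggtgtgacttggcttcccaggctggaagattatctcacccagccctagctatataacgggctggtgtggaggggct
Csrp3, chr7:48848052-48848301, minus strand: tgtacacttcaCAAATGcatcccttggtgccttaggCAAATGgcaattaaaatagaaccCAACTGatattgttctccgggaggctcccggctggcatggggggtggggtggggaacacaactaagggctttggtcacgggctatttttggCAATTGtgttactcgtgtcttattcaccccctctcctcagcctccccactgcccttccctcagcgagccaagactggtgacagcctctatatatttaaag
Ankrd2, chr19:42035777-42036026, plus strand: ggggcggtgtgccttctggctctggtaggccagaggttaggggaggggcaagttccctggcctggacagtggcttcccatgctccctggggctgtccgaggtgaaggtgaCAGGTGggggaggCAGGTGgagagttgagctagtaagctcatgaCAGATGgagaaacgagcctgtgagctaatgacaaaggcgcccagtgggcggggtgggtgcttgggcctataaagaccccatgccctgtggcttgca
Ankrd23, chr1:36535740-36535989, minus strand: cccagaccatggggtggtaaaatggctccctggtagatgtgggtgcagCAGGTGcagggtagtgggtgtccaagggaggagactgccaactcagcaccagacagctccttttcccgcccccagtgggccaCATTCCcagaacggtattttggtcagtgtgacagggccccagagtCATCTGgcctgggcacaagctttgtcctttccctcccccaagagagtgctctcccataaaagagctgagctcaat
The Ankrd1 window held 2 MCAT matches, starting 210 and 123 bases before the start, and 1 E-box starting at 111 bases before it. Ankrd2 held 3 E-boxes and no MCAT match, and the Csrp3 window shown held 5 E-boxes, 1 of them after the start, and no MCAT match. The other Csrp3 window held 4 E-boxes and no MCAT match. Each of the 2 Ankrd23 windows held 1 MCAT match of its own. Each of the 2 Flnc windows also held 1, but these windows overlap and the match is the same. Nrap held 3 E-boxes and no MCAT match. In Xirp2, 2 E-boxes that overlap each other and 1 match to the MEF2 motif were found. Among all 32851 windows of the same 300 bases, 14.7% held an MCAT match on either strand, 1.36% held 2 or more, 72.3% held an E-box and 3.19% a MEF2 match. The CArG motif of serum response factor, held by 1.63% of the windows, matched in none of the members' windows. A match is only a run of letters, and binding was not measured.

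**Figure D1:**
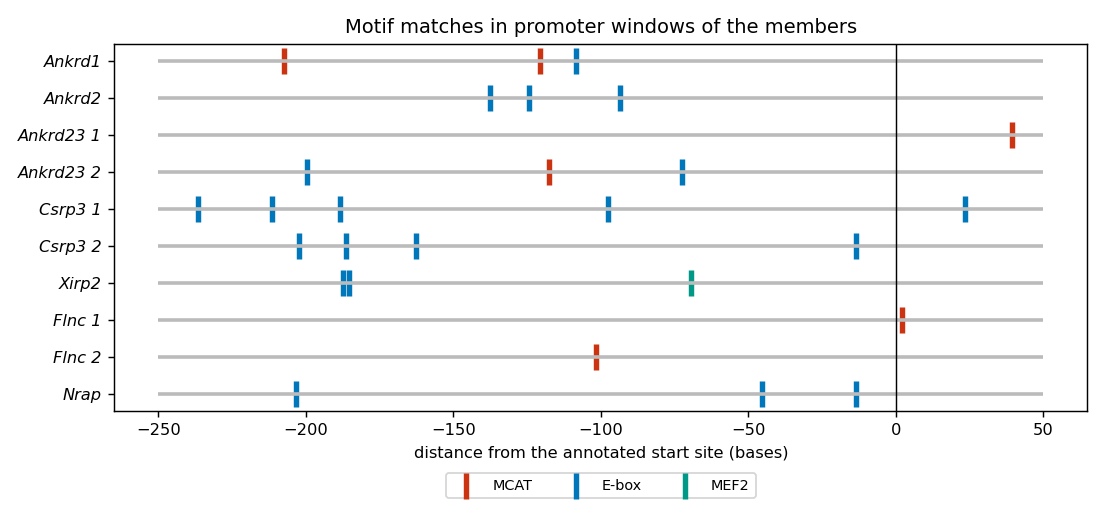
Positions of MCAT, E-box and MEF2 matches (coloured ticks) in the 300-base promoter windows of 7 genes, as the distance in bases from the annotated start site (vertical line). Genes with 2 annotated starts have 2 lines, and Ankrd1 is the only gene with 2 MCAT matches in the same window.

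Levels are given as CPM, counts scaled to a common library size with TMM factors over the 23 muscle libraries, with the SD over libraries. Library totals ranged from 24873817 to 44289343 counts. Mtm1, the gene knocked out, was lower in Mtm1-/y than in WT by edgeR's quasi-likelihood test in all 3 muscles, with log2 fold changes of -2.07 ± 0.10 (SE, adjusted p = 2.07e-05) in the gastrocnemius, -2.26 ± 0.17 (adjusted p = 0.0269) in the diaphragm and -2.59 ± 0.11 (adjusted p = 2.64e-05) in the heart. Fast fibre markers summed to between 123981 and 188066 plain CPM (scaled by the library total alone) in the gastrocnemius, and cardiomyocyte markers to between 47307 and 73651 in the heart, with at most 329 in the gastrocnemius. Several libraries stood apart. The diaphragm held hepatocyte transcripts in very unequal amounts, with summed markers from 493 to 40639 plain CPM over the WT and from 912 to 49370 over the Mtm1-/y libraries, the highest being Mtm1-/y library 2. In the heart, atrial cardiomyocyte markers, a list written after the data had been seen, summed to 36091 plain CPM in WT library 4, against 776 to 4571 in the other WT hearts. In Mtm1-/y hearts 1 to 4 they summed to 163, 6329, 632 and 175, so that all but library 2 were below every WT heart. Where a call changed without Mtm1-/y diaphragm 2 or WT heart 4, both values are given.

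In WT muscle each gene had its own distribution over the tissues. Ankrd23 could not be placed in an order of levels, since its length counts the bases from which reads had been dropped. Per kilobase of exon, Nrap was the most abundant of the other 7 in the WT gastrocnemius at 410 ± 51.8 CPM per kb (n = 4), followed by Xirp2 at 189 ± 19.5, and the libraries of these genes did not overlap with each other or with the rest of the 7. Flnc (134 ± 21.3), Ankrd2 (85.1 ± 28.5), Csrp3 (58.1 ± 23.7) and Xirp1 (41.0 ± 7.03 CPM per kb) followed in an order in which each gene overlapped with its neighbour. Ankrd1 was far below them at 1.56 ± 0.87 CPM per kb. Ankrd23 was at 119 ± 8.56 CPM per kb, a low estimate. The WT heart had another order, with Csrp3 at 448 ± 23.4 and Ankrd1 at 444 ± 472 CPM per kb in front, the SD of Ankrd1 being set by WT library 4. Nrap followed at 126 ± 18.0 CPM per kb, and Ankrd2 was at the bottom at 0.15 ± 0.10, where 2 to 10 reads per library were counted.

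**Figure D2:**
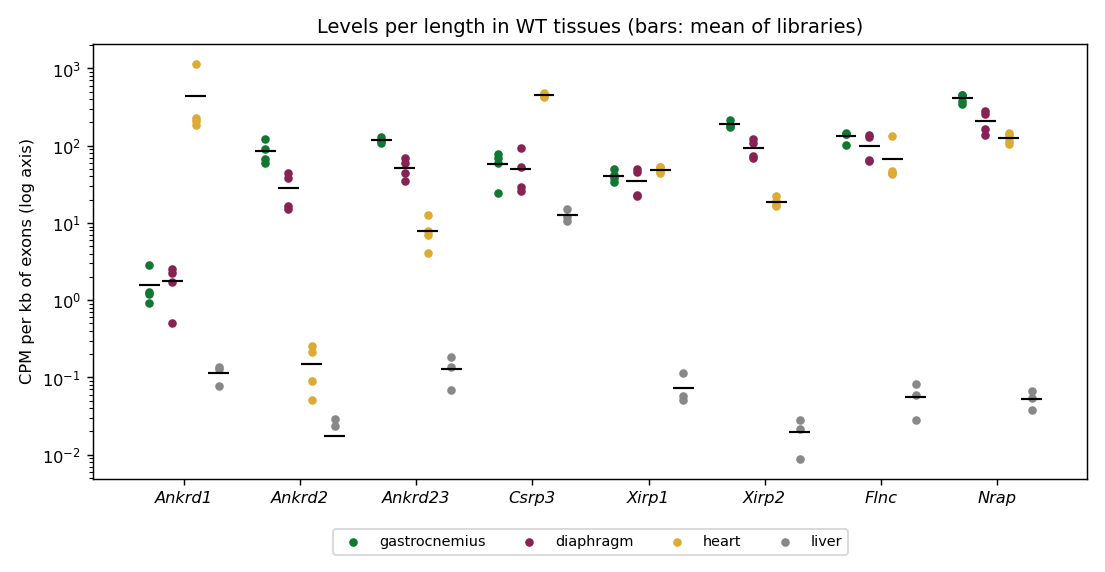
CPM per kb of exons (log axis) of the 8 genes in WT gastrocnemius, diaphragm, heart and liver, 1 point per library, with the mean as a bar; liver is scaled by the library total, and 1 liver library with no Ankrd2 count is not drawn. Ankrd23 is drawn too low, since reads from shared bases had been dropped. Ankrd1 and Csrp3 are highest in heart, Ankrd2 is near 0 there, and Csrp3 is the only gene above 10 CPM per kb in liver.

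Tested over all genes, 2 of the 8 were higher in the WT heart than in the WT gastrocnemius and 5 were lower, where 35.5% of the 15667 genes tested were called higher and 32.7% lower. Ankrd1 was 8.13 ± 0.85 higher on the log2 scale (SE, edgeR adjusted p = 2.31e-05) and Csrp3 2.93 ± 0.32 (adjusted p = 2.82e-05). Ankrd2 differed most in the other direction, with a log2 fold change of -9.11 ± 0.39 (adjusted p = 7.55e-08). Ankrd23 was at -3.92 ± 0.30, Xirp2 at -3.34 ± 0.14 and Nrap at -1.71 ± 0.14, with the highest of their adjusted p-values being Nrap's 5.51e-06. Flnc, at -1.01 ± 0.36, was the least certain of the 5 calls, since its adjusted p of 0.0322 rose above the threshold when any of 6 of the 8 libraries was left out (up to 0.082), and without WT heart 4 it was -1.59 with an adjusted p of 3.98e-06. DESeq2 did not call Flnc here (adjusted p = 0.0587). Xirp1 had a log2 difference of 0.25 ± 0.13 that did not pass (edgeR adjusted p = 0.112). Without WT gastrocnemius 1 this difference was 0.35, and it passed (edgeR adjusted p = 0.0192). DESeq2 gave no p for Ankrd1 here or against the diaphragm. Without WT heart 4 the Ankrd1 difference was 7.03, and it passed (edgeR adjusted p = 7.96e-08).

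The heart differed from the diaphragm in the same way for most genes, with 2 of 8 higher (Ankrd1 and Csrp3) and 4 lower, where 21.7% of 16222 genes were higher and 23.4% lower. Those comparisons share the WT heart libraries. The 4 lower were Ankrd2, Ankrd23, Xirp2 and Nrap, and the call for Nrap was at the threshold, with a log2 fold change of -0.72 ± 0.26 and an edgeR adjusted p of 0.0495. With the replicate number as a block, which pairs WT heart and diaphragm libraries, Nrap was at -0.66 and did not pass (adjusted p = 0.0681). Left out one at a time, 6 of the 8 libraries ended that call, WT heart 4 among them (adjusted p = 0.0547). Without WT heart 4, Flnc, which did not pass with it (-0.55, adjusted p = 0.356), was lower in the heart at -1.10 (adjusted p = 0.0286), and Ankrd1 was at 6.93 (adjusted p = 0.000109). Xirp1 did not pass (0.50, edgeR adjusted p = 0.181), but without WT diaphragm 3 it was higher in the heart at 0.74 (edgeR adjusted p = 0.0425). Between the 2 skeletal muscles, none of the 8 was higher in the WT diaphragm and 4 were lower, against 30.6% and 26.5% of 15952 genes. The 4 were Ankrd2 (log2 fold change -1.56 ± 0.40), Ankrd23 (-1.17 ± 0.19), Nrap (-0.95 ± 0.24) and Xirp2, which lay between the last 2 (adjusted p from 0.0011 to 0.00931). Ankrd1, Csrp3, Xirp1 and Flnc did not pass. No gene of the 8 was higher in the diaphragm at an unadjusted p under 0.05 in edgeR (33.1% of all genes) or by DESeq2 (25% of all genes). Hepatocyte markers summed to 40639, 25559, 493 and 30882 plain CPM in WT diaphragm libraries 1 to 4. They summed to at most 103 in the WT gastrocnemius and 183 in the WT heart. The part of liver RNA in the comparisons with the WT diaphragm was not tested.

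In the gastrocnemius, 5 of the 8 genes rose in Mtm1-/y mice and 1 fell, where edgeR called 14.1% of the 15456 genes tested higher and 14.9% lower. The largest rise of the 8 was that of Ankrd1, 22.9-fold. The same 5 genes were higher without overlap between the genotypes and the same 1 was lower, against 12.4% and 18.6% of all genes tested. The median log2 fold change of the 8 was 1.28, beside 0.02 over all genes. At the threshold of the study, which adds an absolute log2 fold change over 1, all 5 rises passed (4.84% of genes higher) and the fall did not (1.79% lower).

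Ankrd1, the ankyrin repeat protein that is abundant in heart, moved from near absence. It was at 3.71, 3.47, 8.21 and 2.63 CPM in the 4 WT libraries and at 148, 64.2, 89.5 and 101 CPM in the 4 Mtm1-/y libraries. Every Mtm1-/y library was above every WT library, and the lowest of them was several times the highest WT value. The log2 fold change was 4.52 ± 0.38 (SE, edgeR adjusted p = 9.49e-05). Even so, the mean in the Mtm1-/y gastrocnemius, 101 ± 35.2 CPM (n = 4), was below the level of every heart library of either genotype.

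Csrp3, the muscle LIM protein gene, was at 209, 161, 64.7 and 186 CPM in WT and at 1208, 612, 704 and 637 CPM in Mtm1-/y gastrocnemius. The genotypes did not overlap, and the change was 2.39 ± 0.35 on the log2 scale (edgeR adjusted p = 0.00112). One Mtm1-/y library, the first, stood at the level of the heart. Ankrd2, the ankyrin repeat protein of skeletal muscle, was at 140, 77.3, 67.3 and 103 CPM in WT and at 473, 198, 370 and 311 CPM in Mtm1-/y. All Mtm1-/y libraries were above all WT libraries, and the log2 fold change was 1.85 ± 0.29 (adjusted p = 0.00147).

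Of the Xin and filamin pair, Xirp1 was at 295, 241, 197 and 225 CPM in WT and at 963, 671, 647 and 306 CPM in Mtm1-/y gastrocnemius. The fourth Mtm1-/y library lay just above the highest WT library. The change was 1.47 ± 0.28 on the log2 scale (edgeR adjusted p = 0.00412). Flnc was at 1342, 1335, 959 and 1393 CPM in WT and at 3466, 2551, 2509 and 1904 CPM in Mtm1-/y, again without overlap, with a log2 fold change of 1.09 ± 0.18 (adjusted p = 0.00181). In each of the 5 genes that rose, the highest value was that of Mtm1-/y library 1, and all 5 calls held when it was left out.

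The remaining 3 genes did not rise. Ankrd23, the third ankyrin repeat gene, fell from 312, 322, 296 and 351 CPM in WT to 209, 176, 186 and 209 CPM in Mtm1-/y gastrocnemius. No library overlapped, and the log2 fold change was -0.67 ± 0.08 (edgeR adjusted p = 0.000445). Xirp2, the second Xin gene, had 2063 to 2597 CPM in WT and 1598 to 2402 CPM in Mtm1-/y, with a log2 fold change of -0.06 ± 0.12 (adjusted p = 0.743). Nrap was likewise within the same range in both genotypes, 1934 to 2513 CPM in WT and 1687 to 2599 CPM in Mtm1-/y, at -0.04 ± 0.14 (adjusted p = 0.862). The gastrocnemius is the muscle with the least spread here, and none of its 8 results changed sides when any 1 library was left out. In a fit of all 23 muscle libraries, which share 1 estimate of the spread, 4 of the 8 were higher and 0 lower (8.73% and 11.3% of genes), and Ankrd23 (edgeR adjusted p = 0.0639) and Flnc (adjusted p = 0.0703) did not pass.

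**Figure D3:**
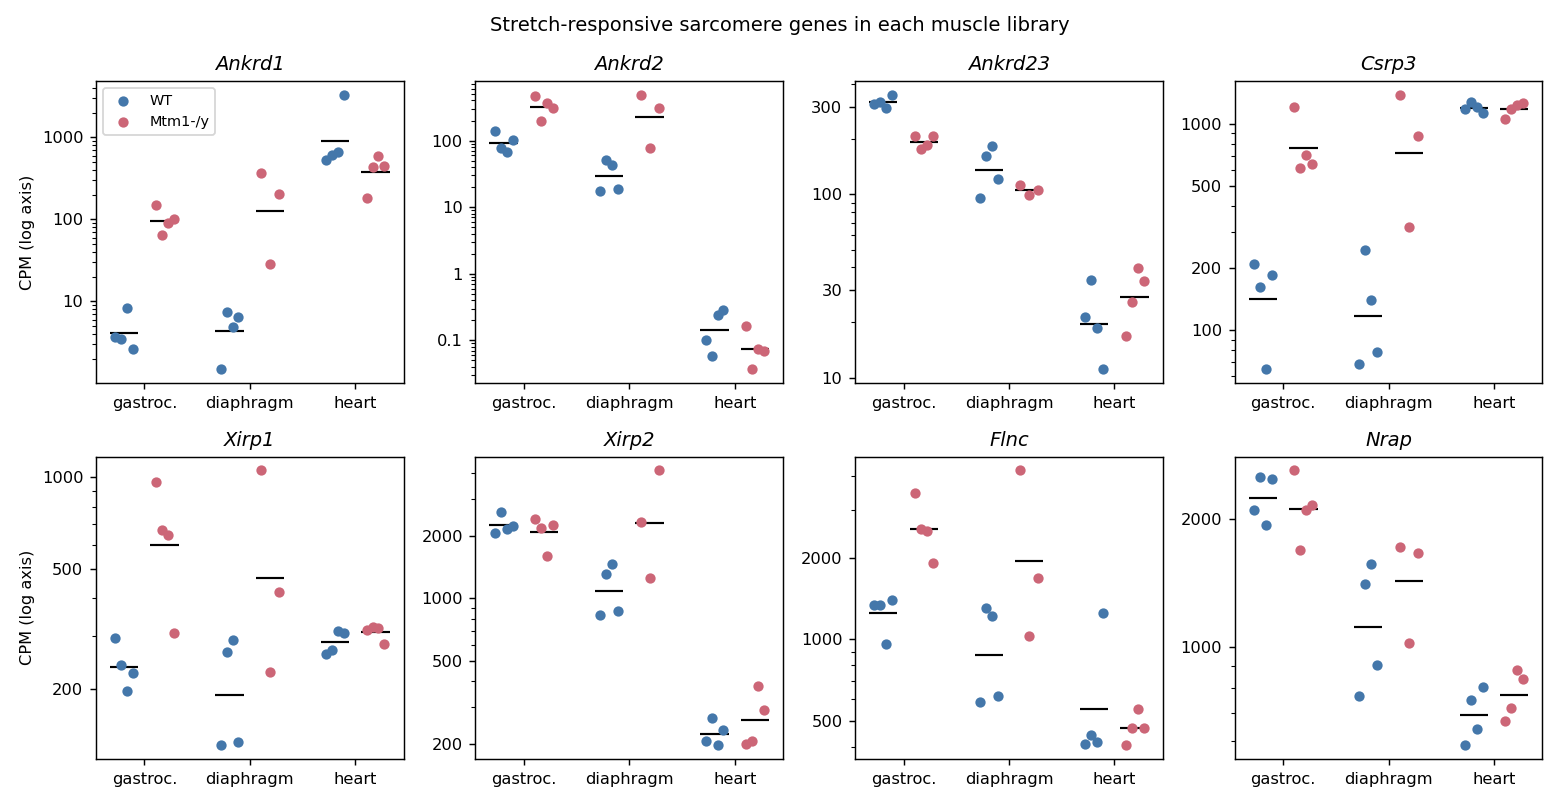
CPM (log axis, own scale for each gene) of the 8 genes in each of the 23 muscle libraries, WT in blue and Mtm1-/y in red, with the geometric mean of each group as a bar. In gastrocnemius the genotypes separate for Ankrd1, Ankrd2, Csrp3, Xirp1, Flnc and, downward, Ankrd23; in diaphragm they separate for Ankrd1, Ankrd2 and Csrp3.

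Other markers moved with genotype in the gastrocnemius beside these genes. Fast fibre markers summed to 170176 to 188066 plain CPM in WT and 123981 to 146949 in Mtm1-/y, where 9 of 10 fell and 1 rose. Markers of immature or regenerating fibres, among them Myh3 and Chrng, summed to 61.1 to 88.5 in WT and to 235 to 458 in Mtm1-/y, where 6 of 8 rose. Macrophage markers summed to 27.9 to 51.8 and 87.4 to 114 plain CPM, and all 6 rose. White adipocyte markers summed to 192 to 281 and 376 to 561, and 7 of 8 rose. Markers of atrial cardiomyocytes, the list written after the data had been seen, summed to 35.8 to 90.6 in WT and 233 to 697 in Mtm1-/y, where 3 of 4 tested rose. Its genes include Sln, which skeletal muscle can also express, and Myl4, which is also in the list of immature fibres. Fibroblast markers overlapped, at 2518 to 7318 in WT and 3788 to 10874 in Mtm1-/y, and 3 of 6 rose. Cardiomyocyte markers overlapped as well, at 81.2 to 329 and 73.5 to 256, and 2 of 4 tested rose. Slow fibre markers also overlapped, at 1692 to 5299 in WT and 1611 to 3951 in Mtm1-/y. Their part in the changes of the 8 genes was not tested.

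In the diaphragm the point estimates for Ankrd1, Ankrd2 and Csrp3 were as large as in the gastrocnemius, but no gene of the 8 passed with edgeR, where 0% of the 16796 genes tested were called higher and 0.0119% lower. Before adjustment, 6 of the 8 were higher with a p under 0.05, against 6.58% of all genes. DESeq2 called 3 of the 8 higher at an adjusted p under 0.05, against 1.7% of genes, and these 3, Ankrd1, Ankrd2 and Csrp3, were also the ones without overlap between the genotypes (4.61% of genes higher without overlap). The edgeR fit of all 23 muscle libraries called 4 of the 8 higher, against 1.56% of genes, namely Ankrd1 and Ankrd2 (adjusted p = 0.00246 for both), Csrp3 (0.0053) and Xirp2 (adjusted p = 0.0385). The spread between libraries was larger here, with a common biological coefficient of variation of 0.394 against 0.171 in the gastrocnemius.

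Ankrd1 was at 1.47, 7.37, 4.90 and 6.43 CPM in WT and at 364, 28.4 and 202 CPM in the Mtm1-/y diaphragm. All 3 Mtm1-/y libraries lay above all WT libraries, although they differed more than 10-fold among themselves. The log2 fold change was 5.32 ± 0.93 (edgeR adjusted p = 0.264, DESeq2 adjusted p = 4.53e-06). Ankrd2 was at 17.5, 51.0, 42.9 and 18.7 CPM in WT and at 487, 76.9 and 314 CPM in Mtm1-/y, with a log2 fold change of 3.19 ± 0.68 (edgeR adjusted p = 0.268, DESeq2 2.9e-05). Csrp3 was at 68.8, 246, 140 and 78.9 CPM in WT and at 1381, 317 and 868 CPM in Mtm1-/y, a log2 fold change of 2.71 ± 0.62 (edgeR adjusted p = 0.279, DESeq2 0.000284). In all 3 genes Mtm1-/y library 2 was the lowest of its group.

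Xirp1, Flnc and Xirp2 overlapped between the genotypes in the diaphragm. Xirp1 was at 131 to 289 CPM in WT and at 1054, 228 and 419 CPM in the Mtm1-/y libraries, a log2 fold change of 1.49 ± 0.55 (edgeR adjusted p = 0.409). Flnc was at 588 to 1298 CPM and at 4195, 1030 and 1686 CPM (1.33 ± 0.54, adjusted p = 0.44). Xirp2, at 828 to 1467 CPM in WT and 2333, 1255 and 4120 CPM in Mtm1-/y, had a log2 fold change of 1.22 ± 0.43 (adjusted p = 0.39), where the gastrocnemius had -0.06. Library 2 overlapped the WT libraries in each of these genes, while the other two Mtm1-/y libraries were above them. Nrap (0.36 ± 0.33) and Ankrd23 (-0.39 ± 0.24) had the smallest differences, with adjusted p-values of 0.78 and 0.65.

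Mtm1-/y diaphragm library 2 was also the one with the most hepatocyte transcripts, with albumin (Alb) at 31876 plain CPM against 1816 and 583 in libraries 1 and 4. In WT the Alb values were 26742, 16855, 284 and 19826 plain CPM, and WT libraries 1 and 4, with the most Alb, were the 2 lowest WT libraries for each of the 8 genes except Ankrd1, of which library 1 was the lowest and library 4 the second highest. The part of liver RNA in these values was not tested. Without Mtm1-/y library 2, edgeR called 2 of the 8 higher, against 0.729% of genes, Ankrd1 at 5.83 (adjusted p = 0.0396) and Ankrd2 at 3.64 (adjusted p = 0.0457), while Csrp3 at 3.10 did not pass (adjusted p = 0.0734). With a hepatocyte score as a covariate, an alternative added after seeing the data, the log2 fold changes of Ankrd1, Ankrd2 and Csrp3 were 4.91, 2.85 and 2.48. None passed, where 0.131% of the 16796 genes tested were called higher. With the 3033 liver-enriched genes left out of the fit no member passed either, but 0% of the 15827 genes tested were called higher there. Immature fibre markers summed to 44.0 to 60.8 plain CPM in the WT and 161 to 594 in the Mtm1-/y diaphragm, where DESeq2 called 7 of 8 higher. Fibroblast markers summed to 2043 to 4472 in WT and 4613 to 10194 in Mtm1-/y, also without overlap, and DESeq2 called 4 of 6 higher. The part of either in the differences was not tested.

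**Figure D4:**
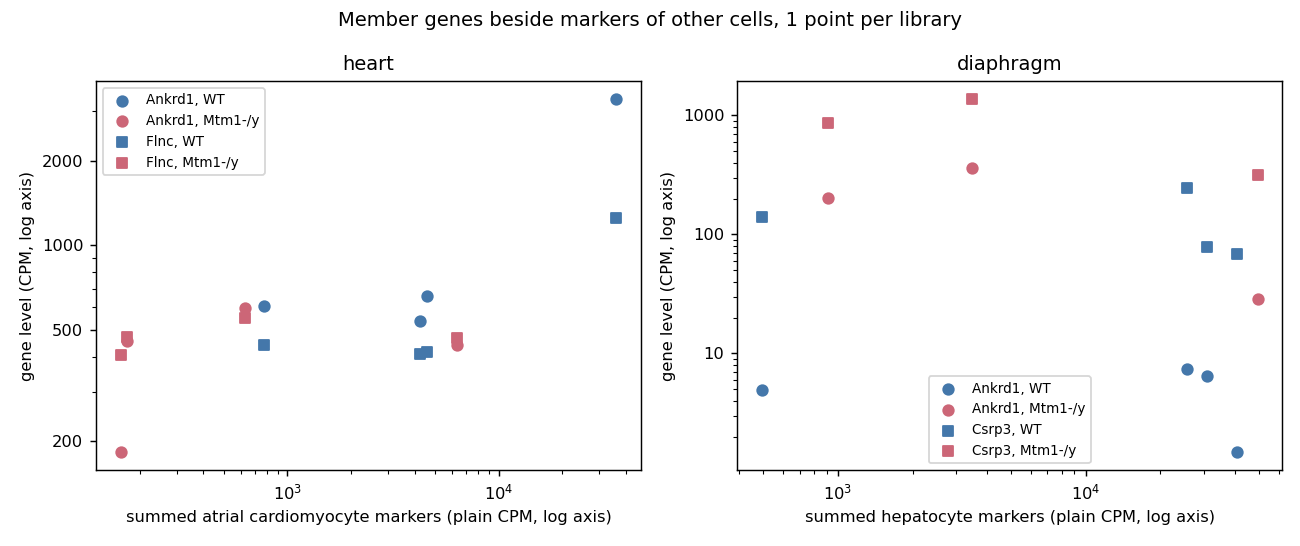
Left, Ankrd1 (circles) and Flnc (squares) in the heart against the summed atrial cardiomyocyte markers; right, Ankrd1 and Csrp3 in the diaphragm against the summed hepatocyte markers. Both axes are logarithmic and each point is 1 library; WT heart 4 stands alone at 36091 plain CPM of atrial markers, and Mtm1-/y diaphragm 2, at 49370 plain CPM of hepatocyte markers, is the lowest of the 3 Mtm1-/y libraries for both genes.

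In the heart none of the 7 genes tested passed in either direction with edgeR, where 0% of 15238 genes were higher and 0.00656% lower. DESeq2 also called 0 of the 7 it tested, against 0.101% of genes higher and 0.352% lower. Before adjustment, 1 gene had a p under 0.05 with edgeR, Ankrd1, which was lower, against 5.83% of all genes. Ankrd2, at 0.06 to 0.29 CPM in WT and 0.04 to 0.17 CPM in Mtm1-/y, was below the filter on low counts of edgeR, and DESeq2 gave it a log2 fold change of -0.99 ± 0.87 (adjusted p = 0.726).

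Ankrd1 was at 535, 607, 658 and 3322 CPM in the WT heart and at 182, 441, 597 and 454 CPM in the Mtm1-/y heart. Apart from WT library 4, the 2 groups overlapped, with library 3 of the Mtm1-/y hearts within the WT values. The log2 fold change was -1.63 ± 0.64 (edgeR adjusted p = 0.546), and DESeq2 gave no p for the gene. Without WT heart 4 it was -0.53 (adjusted p = 0.869), and with an atrial score as a covariate, added after seeing the data, it was -0.42. Flnc had the same high library, at 409, 442, 417 and 1247 CPM in WT and 406, 468, 551 and 470 CPM in Mtm1-/y. Its log2 fold change of -0.42 ± 0.36 (adjusted p = 0.631) became 0.15 without WT heart 4. That library had 20622 plain CPM of Nppa and 5363 of Myl7, atrial genes that the other WT hearts held at 651 to 2404 and 44.9 to 883 plain CPM. Myl7 was at 4.77, 1268, 1.27 and 9.25 plain CPM in Mtm1-/y hearts 1 to 4. Leaving out WT heart 4 therefore did not even out the atrial genes between the genotypes. White adipocyte markers summed to 505 to 710 plain CPM in WT and 480 to 598 in Mtm1-/y hearts. DESeq2 called 7 of these 8 markers lower, against 0.352% of all genes, and edgeR called 0. Their part in the heart values was not tested.

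Of the remaining genes, Csrp3 and Xirp1 had the narrowest ranges in the heart. Csrp3 was at 1124 to 1274 CPM in WT and 1050 to 1256 CPM in Mtm1-/y, a log2 fold change of -0.04 ± 0.09 (edgeR adjusted p = 0.882), and Xirp1 at 262 to 311 and 282 to 321 CPM, a log2 fold change of 0.09 ± 0.09 (adjusted p = 0.669). Xirp2 (0.24 ± 0.21), Nrap (0.14 ± 0.13) and Ankrd23 (0.43 ± 0.34) had positive estimates that did not pass, with adjusted p-values from 0.618 to 0.656.

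**Figure D5:**
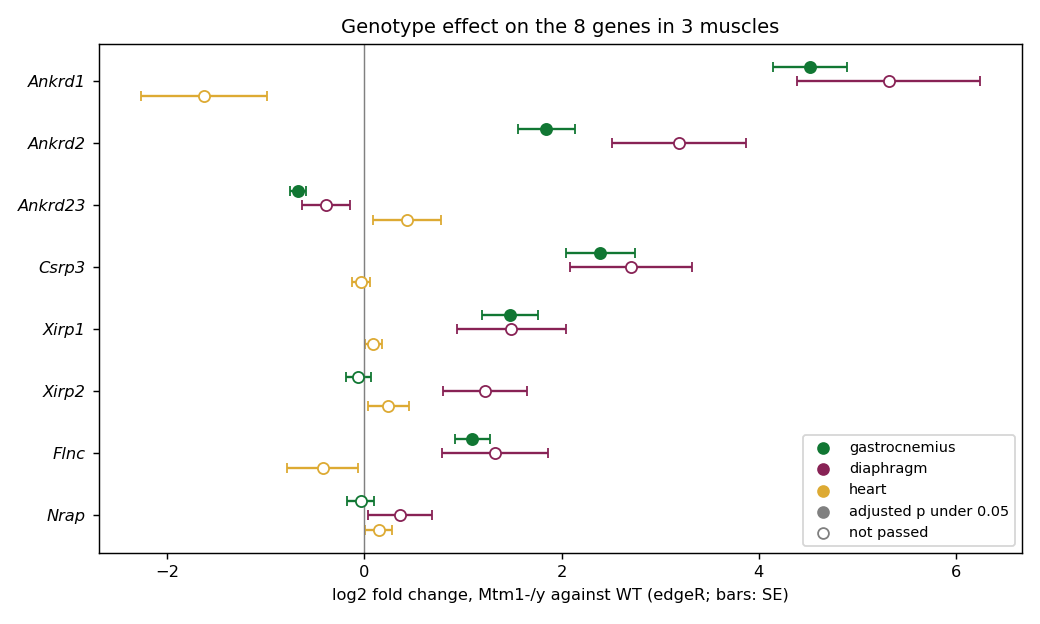
Log2 fold change of Mtm1-/y against WT (edgeR) with its SE for the 8 genes in gastrocnemius (green), diaphragm (purple) and heart (yellow); filled points passed at an adjusted p under 0.05, and Ankrd2 was not tested by edgeR in heart. Gastrocnemius and diaphragm points lie farthest apart for Ankrd2 and Xirp2, and heart points lie at or below 0.43.

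Whether the genotype effect differed between muscles was tested directly, as the effect in one tissue minus the effect in the other. Between heart and gastrocnemius, 5 of the 8 effects were lower in the heart and 1 was higher, against 9.89% and 9.94% of 16627 genes. Ankrd1 differed by -6.13 ± 0.85 (SE, edgeR adjusted p = 0.000417), Csrp3 by -2.41 ± 0.39 (adjusted p = 0.00107) and Xirp1 by -1.37 ± 0.32 (adjusted p = 0.00946), and these 3 calls held in all 16 fits that left out 1 library. In the fit of all 23 libraries 2 of the 8 effects were lower in the heart (5.88% of genes), Ankrd1 and Csrp3, while Xirp1 (-1.33, adjusted p = 0.0933), Flnc (adjusted p = 0.0899) and Ankrd2 (adjusted p = 0.123) did not pass. Without WT heart 4 the Ankrd1 difference was -5.05 (adjusted p = 8.54e-05). Flnc differed by -1.50 ± 0.43 (adjusted p = 0.0253), a call lost without Mtm1-/y gastrocnemius 1 (adjusted p = 0.0542) and without Mtm1-/y heart 1 (adjusted p = 0.0502), while without WT heart 4 the difference was -0.94 (adjusted p = 0.0133). Ankrd2, at -2.79 ± 0.91 (adjusted p = 0.0424), rests on heart counts of 1 to 10 reads a library and was lost in 10 of 16 such fits, among them that without WT heart 4 (adjusted p = 0.173). Ankrd23, the 1 gene with the higher effect in heart, at 1.12 ± 0.38 (adjusted p = 0.0494), was lost in 14 of the 16, among them that without WT heart 4 (0.89, adjusted p = 0.0688). Xirp2 (0.32 ± 0.27) and Nrap (0.20 ± 0.21) did not pass.

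Between heart and diaphragm edgeR called none of the 8 effects different (0.00573% of 17466 genes higher, 0% lower), with 5 lower at an unadjusted p under 0.05, against 6.73% of all genes. DESeq2 called 3 lower, Ankrd1, Ankrd2 and Csrp3, against 0.944% of genes, and without Mtm1-/y diaphragm 2 edgeR called the same 3 (adjusted p from 0.00631 to 0.0402, 1.17% of genes lower). Their log2 differences were -6.93 ± 1.19, -4.14 ± 1.17 and -2.73 ± 0.60. That of Ankrd2 rests on heart counts of 1 to 10 reads a library, too low for edgeR to test the gene in the heart alone. The comparison of heart and diaphragm shares its heart libraries with that of heart and gastrocnemius. Between diaphragm and gastrocnemius none of the 8 passed in edgeR (0.114% of 17509 genes higher, 0.166% lower) or in DESeq2 (1.18% higher, 0.858% lower). The largest relative to its SE was Xirp2, at 1.28 ± 0.44 (edgeR adjusted p = 0.265), the 1 gene higher at an unadjusted p under 0.05 in edgeR, against 5.83% of all genes. For Ankrd1 the difference was 0.78 ± 0.92 and for Csrp3 0.30 ± 0.73, and with SEs this wide neither difference could be told from 0.

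The partners of these proteins did not move in 1 direction. They were followed with 7 lists that hold 100 genes, written with earlier results of these data known. In the gastrocnemius, where 14.1% of genes rose and 14.9% fell, the titin N2A and I-band partners had 5 of 16 up and 9 down (median log2 fold change -0.36). Ttn itself, the spring to which the ankyrin repeat proteins bind, fell by 0.62 on the log2 scale (edgeR adjusted p = 0.00122), Capn3, a protease anchored at N2A, fell by 0.65 (adjusted p = 0.000694), and Fhl1, a LIM protein of the I-band, rose by 1.28 (adjusted p = 0.00098). The Z-disc scaffold had 3 of 18 up and 8 down, with Fsd2 at -0.73, Actn3, the fast-fibre alpha-actinin, at -0.92 and Cmya5 at -0.69 (adjusted p from 0.000365 to 0.000552). Of the paralogs of the 8 genes, 1 of 7 rose, Csrp2 at 0.96, and 1 fell, Neb at -0.45.

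Chaperones of filamin and Xin proteins were the list with rises and no fall, 6 of 10 (median 0.70). The small heat shock protein genes Hspb7 (1.62 ± 0.24, edgeR adjusted p = 0.00112), Cryab (1.35 ± 0.19, adjusted p = 0.000848) and Hspb8 (1.00 ± 0.15, adjusted p = 0.00114) rose. Genes of the costamere and the intercalated disc had 7 of 23 up and 4 down, with Enah, an actin polymerization factor, at 0.88, Tln2 at -0.73 and Lims2 at -0.92. Targets and factors of YAP and TEAD had 7 of 18 up and 1 down, with the secreted matricellular protein gene Ccn1 at 1.34 (adjusted p = 0.00408), Ptpn14 at 0.35 and Crim1 at -0.33. Load-responsive fetal cardiac genes had 0 of 5 tested up and 2 down, Acta1 at -0.75 and Actc1 at -2.17 (adjusted p = 0.00524). In the diaphragm and in the heart edgeR called no gene of the 7 lists. DESeq2 called 6 higher and 1 lower in the diaphragm, where 1.7% of all genes were higher and 0.67% lower, 3 of the 6 being chaperones. In the heart it called none, against 0.101% and 0.352% of all genes.

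Across the 23 muscle libraries the genes with the profile most like each member were taken from 10910 genes, by Pearson's r of log2 CPM, as a description, since the libraries share tissue and genotype. Csrp3 was most like Hspb7 (r = 0.95) and Enah (0.94), and Ankrd1 most like Ckap4 (0.94), Enah (0.93) and Itga5 (0.92). For Ankrd2 the closest was Myog (0.99), the myogenin gene, for Ankrd23 the noncoding 2310040G24Rik (0.98) and for Xirp2 Mef2c (0.98). Xirp1 was closest to Ankrd10 (0.93) and Cryab (0.88), Flnc to Mustn1 (0.94) and Nrap to Mypn (0.97), which encodes the titin partner myopalladin.

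In the liver 7 of the 8 genes were near absence, at 0 to 6.02 plain CPM over all 7 libraries, and Csrp3 was the exception. It was at 28.7, 31.6 and 41.0 plain CPM in WT and at 27.1, 41.2, 27.1 and 38.5 plain CPM in Mtm1-/y liver, from 732 to 1585 reads a library. The genotypes overlapped, and no test was made in liver.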

How the data were processed

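RNA-seq counts were analysed for 30 libraries, 23 of them of muscle. The deposited values are raw read counts per gene, which the authors made from single 50-base reads (TruSeq Stranded mRNA kit, 350 ng of RNA). Reads were trimmed with cutadapt 1.10 (Phred 20, at least 40 bases kept), aligned to mm10 with STAR 2.5.3a and counted with htseq-count 0.6.1p1 in union mode on Ensembl 96. Ambiguous reads were dropped, which lowers genes that overlap others.

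Genes were tested in R 4.3.3 with edgeR 4.0.16 (filterByExpr at a minimum count of 10, TMM, quasi-likelihood F test, Benjamini-Hochberg over all genes tested), each tissue alone. Differences between genotype effects were contrasts in a fit of both tissues, and WT tissues were compared in a fit of their WT libraries alone. A gene passed at an adjusted p under 0.05. The alternatives were DESeq2 1.42.0, its size factors in edgeR, no filter, all 23 muscle libraries in 1 fit, a fit without liver-enriched genes, the replicate number as a block, an added fold threshold and leaving out each library. Likeness between genes used log2 CPM with a prior count of 2 over genes whose mean reached 5 CPM. Gene positions and lengths are from GENCODE on mm10. The scripts were tested on simulated counts.

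The 8 genes and the lists were chosen with earlier results of these data known. Genes named are the 8, Mtm1, for each list up to 3 that passed in the gastrocnemius with the smallest p, those closest in profile to each of the 8, and defining markers of the marker lists (Alb, Myh3, Chrng). The atrial genes (Nppa, Myl7, Sln, Myl4) and those of the closing section (Rcan1, Hspb1, Dsp) were chosen after values had been seen. Nothing in the labels says whether libraries of different organs came from the same mouse, and p-values measure the spread between these libraries. Replicate numbers were taken to pair libraries where, over 3 or more pairs, every correlation of their deviations from the group means was over 0.1. That held only for WT heart against WT diaphragm (0.121 to 0.204, 4 pairs). WT diaphragm against WT gastrocnemius fell just short of the rule (0.0987 to 0.33, 4 pairs). No pair of libraries of a group agreed within sampling noise (lowest chi-square per degree of freedom 12.5).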

Additional observations from a re-analysis of the deposited data

Results flagged for a closer look

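Groups of 4 libraries were the gastrocnemius and heart of both genotypes, the WT diaphragm and the Mtm1-/y liver. In these, 7 values of the 8 genes lay farther from the rest of their group than the 95% critical value of Dixon's test. Chance alone exceeds that value in about 1 group in 20 for each gene, and the share over all genes was not computed. WT heart 4, the heart library with the most atrial transcripts, was such a library for Ankrd1 (3322 CPM) and for Flnc (1247 CPM). Mtm1-/y gastrocnemius 1 was high for Csrp3 (1208 CPM), and WT gastrocnemius 3 was low for Flnc (959 CPM). Mtm1-/y liver 2 was high for Xirp2 (6.02 plain CPM), Nrap (1.65) and Ankrd2 (0.688).

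Liver was outside the comparisons. There Xirp2, Ankrd2, Nrap and Flnc in Mtm1-/y liver 2 were also above every WT liver library. The highest WT values were 0.333, 0.0333, 0.370 and 0.777 plain CPM, and Flnc was at 2.44 in Mtm1-/y liver 2. Csrp3 was only just above the WT libraries there, at 41.2 against at most 41.0 plain CPM. In the same library the summed fast fibre markers were at 85.6 plain CPM, against 6.44 to 33.9 in the other 6 liver libraries, and their part in these values was not tested.

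The genotype effect in heart minus that in gastrocnemius, on the log2 scale, differed from 0 by edgeR's contrast for Ankrd1 (-6.13), Ankrd2 (-2.79), Csrp3 (-2.41), Flnc (-1.498), Xirp1 (-1.37) and Ankrd23 (1.12). Ankrd2, with heart counts of 1 to 10 reads a library, was too low for edgeR to test in the heart alone.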

How the results depend on the processing

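Of the values for single genes under all alternatives, 1085 kept their direction and their side of the threshold, 50 lost and 19 gained a call, and 20 changed sign, none of them in a gene that had passed. Where a count changed with the setting, the cause was not tested. In the gastrocnemius the 1 fall (Ankrd23) became 0 with an absolute log2 fold change over 1 required and 0 in edgeR on all 23 muscle libraries (1.79% and 11.3% of all genes lower). In the diaphragm the count of genes higher was 0 with edgeR, 3 with DESeq2 (1.7% of all genes), 4 in edgeR on all 23 libraries (1.56%) and 0 to 2 when 1 library was left out, the 2 without Mtm1-/y diaphragm 2 (0.729%). For heart minus gastrocnemius, the count of higher effects (1) was 0 without the filter on low counts (3.33% of all genes) and 0 to 1 with 1 library left out, and that of lower effects (5) was 2 on all 23 libraries (5.88%) and 3 to 5 with 1 library left out, the 3 without Mtm1-/y gastrocnemius 1 (7.61%). For heart minus diaphragm, the count of lower effects (0) was 3 with DESeq2 (0.944%), 1 on all 23 libraries (0.205%) and 0 to 3 with 1 library left out, the 3 without Mtm1-/y diaphragm 2 (1.17%). DESeq2 called 1 gene higher in WT heart against gastrocnemius and 1 against diaphragm (26.7% and 18.4% of all genes), in place of 2, and gave no p for Ankrd1.

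With an atrial score as a covariate, chosen after seeing the data, Xirp2 was at -0.012 and Flnc at 0.15 in the heart. With 1 library left out, the log2 fold changes ran from -0.12 to 0.055 for Xirp2 and -0.13 to 0.074 for Nrap in the gastrocnemius, from -0.58 to 0.15 for Flnc and -0.067 to 0.016 for Csrp3 in the heart, from -0.80 to 0.39 for Xirp1, -0.23 to 0.78 for Csrp3 and -0.54 to 0.58 for Flnc in diaphragm minus gastrocnemius, and from -0.065 to 0.62 for Ankrd1 and -0.68 to 0.022 for Csrp3 in WT diaphragm against gastrocnemius.

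The replicate number as a block moved the count of higher effects for heart minus gastrocnemius from 1 to 0 (6.56% of all genes, Ankrd23 at 1.16, edgeR adjusted p = 0.0684) and Xirp1 in diaphragm minus gastrocnemius to -0.017, and it ended the call for Nrap in WT heart against diaphragm. It changed no other call. Correlations of same-numbered libraries ran from -0.12 to 0.121 in the gastrocnemius, -0.789 to 0.638 in the diaphragm and -0.666 to 0.322 in the heart. By the rule given above these libraries were not taken as pairs, and the labels do not say whether they share more than a number. The diaphragm, with 3 Mtm1-/y libraries and the widest spread, and Ankrd2 in the heart, with at most 10 reads a library, limit what could be called.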

Other observations

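The genes given here were chosen after their values were seen. In the diaphragm DESeq2 called Rcan1, the calcineurin regulator gene, higher (137 to 489 CPM over 3 Mtm1-/y and 64.5 to 99.3 CPM over 4 WT libraries, adjusted p = 0.00131), and likewise Hspb1, a small heat shock protein gene (40.6 to 164 CPM against 23.4 to 34.7 CPM, adjusted p = 0.00436). With edgeR neither passed there (adjusted p = 0.279 for both). In the gastrocnemius Hspb1 rose by 1.45 ± 0.25 on the log2 scale (edgeR adjusted p = 0.00241), and Rcan1 did not pass (adjusted p = 0.0601).

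Dsp, the desmoplakin gene of the intercalated disc, had a log2 fold change of 6.01 ± 1.43 in the gastrocnemius (edgeR adjusted p = 0.0116), and DESeq2 gave no p for it. The 4 Mtm1-/y libraries ran from 1.97 to 137 CPM with a median of 9.05 CPM, and the 4 WT libraries were at 0.308 to 1.03 CPM. The genotypes did not overlap, and 1 Mtm1-/y library set most of the mean of its group.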
